A study of Mus musculus with 18 samples.

Results

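Retinoic acid is made from vitamin A by retinaldehyde dehydrogenases, and *Aldh1a2*, *Dhrs3*, *Rara*, *Rarg*, *Rxra*, *Rxrb* and *Vdr* were examined here as genes of its synthesis and of the nuclear receptors that read it or a related ligand. The members were picked by symbol from an RPKM table (read counts scaled by gene length and library size) and all 7 were found, of 20298 genes in all. RNA was sequenced from 18 libraries of mouse cells, 3 in each of 6 groups: WT monocytes on day 0, DKI monocytes on day 0, and the cells of each genotype after 3 or 6 days of culture with 20 ng/ml GM-CSF, a cytokine that signals through STAT5. Both genotypes were C57BL/6, and the day 0 cells were untreated. In DKI mice the N-domains of *Stat5a* and *Stat5b* are both mutated by knockin, so that STAT5 can form dimers and not tetramers, and no cell-type-specific driver of the mutations was named. The age and sex of the mice, and whether each library came from its own animal, were not given in the sources used here, so the p-values below measure the spread between libraries described as 3 independent experiments. The starting cells were Ly6C+ CCR2+ bone marrow monocytes enriched by negative selection and sequenced in bulk, in which fewer cells of a type and less RNA per cell cannot be told apart.

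In the retinoid pathway, retinol is oxidised to retinaldehyde and then, irreversibly, to retinoic acid, while DHRS3 turns retinaldehyde back into retinol. Retinoic acid binds the RARs, which sit on DNA as heterodimers with an RXR, and the vitamin D receptor also works as a heterodimer with an RXR. Dendritic cells and macrophages are known sites of retinoic acid synthesis and of vitamin D signalling.

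Mapped reads were estimated at 29500000 to 43200000 per library, and for each member a single gene length turned its RPKM into whole reads (within 0.05) in all 18 libraries, with 1 to 12620 reads for *Aldh1a2* and 167 to 13561 for *Dhrs3*. The labels name the tissue as liver, but all 4 hepatocyte markers were at 0 in every library of days 3 and 6, and on day 0 their sum was at most 0.0470 RPKM, whereas the sum of 6 monocyte markers on day 0 was 2509 to 4111 RPKM. *Stat5a* on day 3 had a mean ± SD of 42.6 ± 14.1 RPKM in WT cells and 12.4 ± 2.67 RPKM in DKI cells (n = 3 each; log2 difference −1.67, adjusted p = 0.0224, limma), and *Stat5b* 21.7 ± 4.18 and 14.6 ± 1.97 RPKM (−0.53, adjusted p = 0.143). On day 0 the *Stat5a* means were 14.5 RPKM in WT and 13.7 RPKM in DKI cells. From day 0 to day 3 *Stat5a* rose in WT cells (1.45, adjusted p = 0.00358, limma), and its change in DKI cells did not pass (−0.15, adjusted p = 0.602). The library names carry a year, which is the same for 14 libraries and is the year before for library 1 of both genotypes on days 3 and 6.

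All members except *Aldh1a2* were above the expression filter in untreated monocytes of at least 1 genotype, and no member passed the test between the genotypes on day 0. *Vdr* was above the filter in DKI monocytes only, with a mean of 2.09 RPKM against 1.95 RPKM in WT monocytes. A gene was tested where its mean exceeded 2 RPKM in at least 1 of the groups compared, and it was counted as changed at an adjusted p under 0.05 with a fold over 1.5. On day 0, 0 of 9179 genes (0%) passed in limma, with 44 at an unadjusted p under 0.05, and so 0 of the 6 members tested passed. Libraries of the same number shared their deviations on day 0 (correlations of 0.687 to 0.868). With the library number as a block in limma, 0 genes passed and 352 were at an unadjusted p under 0.05. The intervals that follow are from the fit without the block. The log2 differences (DKI minus WT, log2(RPKM + 1)) of those 6 lay between −0.35 for *Dhrs3*, with a 95% interval of −1.21 to 0.51, and 0.14 for *Rarg*, with an interval of −0.30 to 0.58. The interval of *Rara* was −0.85 to 1.04. A difference of 1 log2 unit was thus within the intervals of *Dhrs3* and *Rara* and not within that of *Rarg*. *Vdr* had 1.70, 2.01 and 2.14 RPKM in WT and 1.74, 2.31 and 2.20 RPKM in DKI libraries. Between libraries of the same number, *Dhrs3* was lower in DKI cells in all 3 pairs (by −0.53 to −0.10), as was *Rxrb* (−0.0489 to −0.00259). *Vdr* was higher in all 3 (0.02 to 0.14), and with the pairs as a block 0 members passed.

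After 3 days with GM-CSF the members parted by genotype. *Dhrs3* and *Rxra* were higher in DKI cells, *Aldh1a2* and *Vdr* were lower, and *Rara*, *Rarg* and *Rxrb* did not pass. Thus 4 of 7 members passed, 2 in each direction, against 7.42% of the 9740 genes tested (3.21% higher and 4.21% lower). With the library number as a block, 2 of 7 passed, *Dhrs3* higher and *Vdr* lower, and *Aldh1a2* and *Rxra* did not. On day 6, 2 of 7 members passed, *Dhrs3* higher and *Vdr* lower in DKI cells, against 7.54% of 9842 genes (2.72% higher and 4.82% lower). The median difference of all genes tested was −0.11 on day 3 and −0.17 on day 6. Centring each library on its median changed the direction of no member with 1 exception, *Rarg* on day 3 (−0.03 and 0.05), but on day 6 it moved the split of all genes called from 268 higher and 474 lower to 323 and 285.

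**Figure D1:**
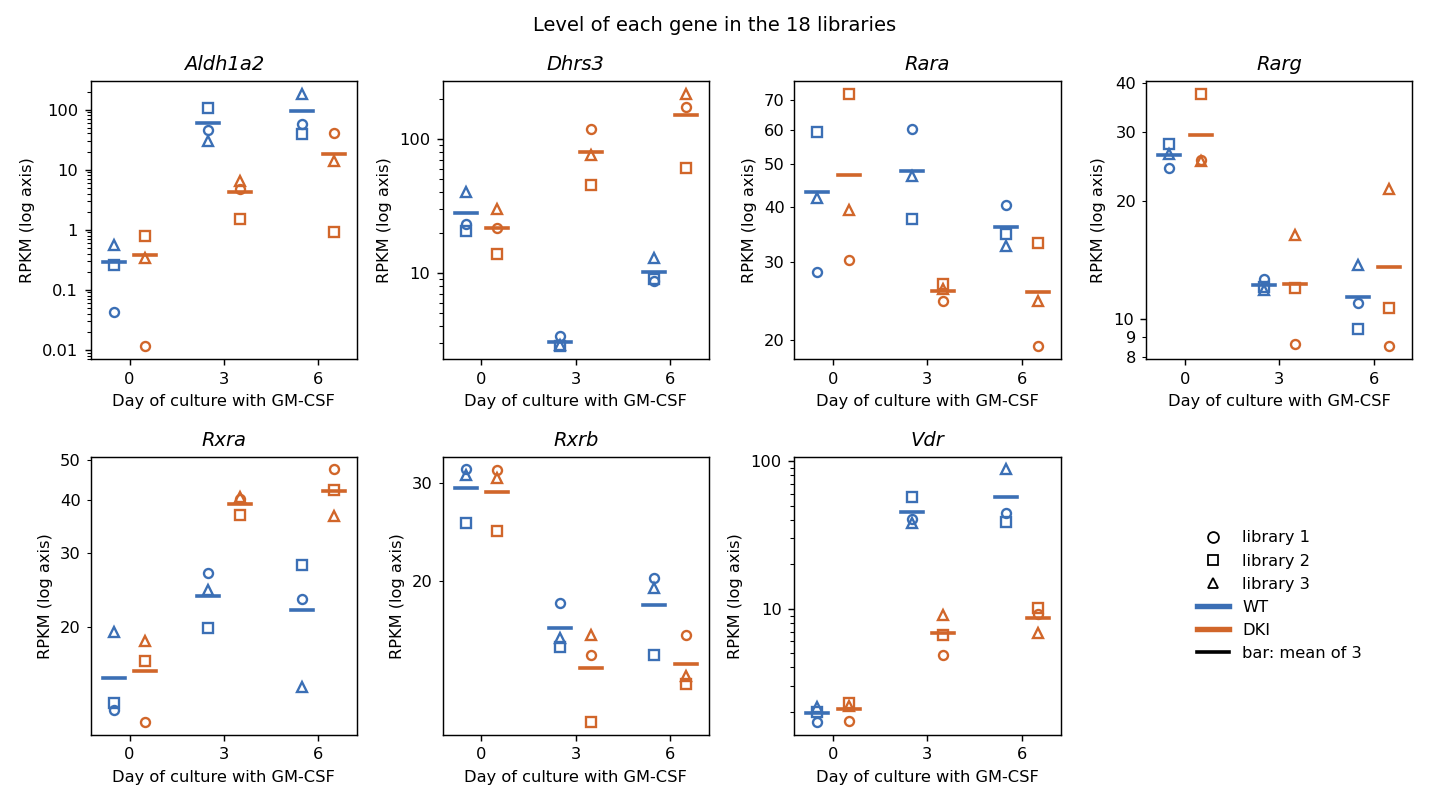
Level of each of the 7 genes (RPKM, log axis) by day of culture with GM-CSF, with a point per library (shape gives the library number, colour the genotype) and a bar at the mean of 3. The DKI libraries of *Dhrs3* on days 3 and 6 (45.7 to 218 RPKM) sit above all WT libraries of those days (2.82 to 13.01 RPKM), and those of *Vdr* (4.87 to 10.1 RPKM) sit below them (38.1 to 88.0 RPKM).

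*Aldh1a2* (Entrez Gene 19378, chromosome 9, 71215789 to 71296243, mm10), whose product makes retinoic acid from retinaldehyde, was close to absent in fresh monocytes and high in WT cells after GM-CSF. Fresh WT monocytes had 0.0420, 0.261 and 0.556 RPKM, from 4, 25 and 41 reads, and DKI monocytes 0.0114, 0.778 and 0.344 RPKM, from 1, 76 and 23 reads. On day 3 the WT libraries were at 45.2, 104 and 30.2 RPKM and the DKI libraries at 4.68, 1.48 and 6.38 RPKM. On day 6 the WT libraries were at 57.4, 39.1 and 184 RPKM and the DKI libraries at 40.3, 0.906 and 13.9 RPKM. The groups were apart on day 3, but on day 6 DKI library 1 lay above WT library 2, and the DKI libraries spanned 0.906 to 40.3 RPKM.

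The day 3 means of *Aldh1a2* were 59.9 ± 39.3 RPKM in WT and 4.18 ± 2.49 RPKM in DKI cells (SD, n = 3), a ratio of 14.3, and the log2 difference was −3.50 (SE 0.56, 95% interval −4.86 to −2.15, adjusted p = 0.0211, limma). With the library number as a block the adjusted p was 0.0634, and leaving out WT library 1 or WT library 2 gave 0.0746 and 0.0557, within a range of 0.0147 to 0.0851 over all alternatives tried. On day 6 the difference was −2.84 (SE 1.15, interval −5.62 to −0.07, adjusted p = 0.168) and was not called, with means of 93.5 ± 79.0 and 18.4 ± 20.1 RPKM. Over the alternatives it ran from −4.02 (libraries of the later year) to −1.61 (without DKI library 2), with adjusted p-values of 0.0357 (all 18 libraries in 1 fit) to 0.396. *Aldh1a2* rose from day 0 to day 3 in both genotypes, by 5.39 on the log2 scale in WT cells (SE 0.43, adjusted p = 0.000212) and by 1.81 in DKI cells (SE 0.45, adjusted p = 0.0231). The rise differed between the genotypes by −3.58 (SE 0.68, adjusted p = 0.0198 for the interaction). The rise in DKI cells was lost in 6 alternatives, 4 of which left out library 1 or 3 of either day (adjusted p = 0.0521 to 0.0702). The interaction was lost in 5, with the 14 libraries of the later year (0.0505), with a pseudocount of 0.1 (0.128), with all 18 libraries in 1 fit (0.149) and without WT or DKI library 2 of day 0 (0.0525 and 0.0604), the smallest over the alternatives being 0.0142. In order of mean level the 6 groups ran from WT day 0, DKI day 0, DKI day 3, DKI day 6 and WT day 3 to WT day 6, and of these neighbours the ranges were apart between DKI day 0 and DKI day 3 alone.

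Because *Aldh1a2* had the widest range of the members as a fold, the 250 bases before its annotated start are shown, together with those of *Vdr*, the other member that passed as lower in DKI cells. They are from RefSeq (GRCm38.p6), 5′ to 3′ on the strand of the gene, at chr9:71215539-71215788 on the plus strand for *Aldh1a2* and at chr15:97908297-97908546 on the minus strand for *Vdr*. Capitals mark a match to TTCNNNNGAA, a spaced palindrome like the STAT element TTCNNNGAA.
Aldh1a2: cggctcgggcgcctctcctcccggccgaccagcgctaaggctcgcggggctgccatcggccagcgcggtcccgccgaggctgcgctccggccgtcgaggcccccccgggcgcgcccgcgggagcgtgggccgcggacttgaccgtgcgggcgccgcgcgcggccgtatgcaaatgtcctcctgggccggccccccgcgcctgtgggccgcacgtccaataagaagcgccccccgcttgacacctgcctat
Vdr: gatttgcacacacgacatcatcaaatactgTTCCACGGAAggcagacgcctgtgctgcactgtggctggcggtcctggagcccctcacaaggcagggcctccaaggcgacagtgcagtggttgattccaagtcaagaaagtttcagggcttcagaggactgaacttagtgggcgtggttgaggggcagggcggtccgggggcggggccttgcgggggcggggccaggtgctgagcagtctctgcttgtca
The *Aldh1a2* window was 77.6% G or C, higher than 97.6% of 32851 such windows of mouse genes, and held neither palindrome. The *Vdr* window was 61.2% G or C, above the median of 52.4%.

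*Dhrs3* (Entrez Gene 20148, chromosome 4, 144892534 to 144928209), whose product reduces retinaldehyde to retinol, moved in opposite directions in the 2 genotypes. On day 0 it was at 23.1, 20.5 and 40.4 RPKM in WT and at 21.6, 14.0 and 29.95 RPKM in DKI libraries. On day 3 the WT libraries were at 3.39, 2.82 and 2.89 RPKM, the lowest of any group, and the DKI libraries at 119, 45.7 and 75.7 RPKM. On day 6 the values were 8.65, 9.03 and 13.01 RPKM in WT and 172, 61.1 and 218 RPKM in DKI libraries. On both culture days the lowest DKI library was above the highest WT library, and on day 0 the groups overlapped.

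The *Dhrs3* means on day 3 were 3.04 ± 0.311 RPKM in WT and 80.0 ± 36.7 RPKM in DKI cells (SD, n = 3), a ratio of 26.4, with a log2 difference of 4.23 (SE 0.33, interval 3.43 to 5.02, adjusted p = 0.00458, limma). This call held in each of the 14 alternatives run, with differences of 3.89 to 4.57. On day 6 the ratio of the means was 14.7 (150.4 ± 80.7 against 10.2 ± 2.42 RPKM) and the log2 difference 3.59 (SE 0.47, interval 2.45 to 4.73, adjusted p = 0.0162). Without WT library 1, WT library 3 or DKI library 3 of day 6 the adjusted p rose to 0.0713, 0.0569 and 0.0587, and with the 14 libraries of the later year it was 0.147, the largest of the alternatives, whose smallest was 0.000153. *Dhrs3* fell from day 0 to day 3 by 2.79 on the log2 scale in WT cells (SE 0.26, adjusted p = 0.000369), and it rose by 1.79 in DKI cells (SE 0.41, adjusted p = 0.0173). In DKI cells that call was lost without DKI library 1 or 2 of day 0 (adjusted p = 0.0504 and 0.0604). The changes differed by 4.57 from day 0 to day 3 (SE 0.52, adjusted p = 0.00147) and by 3.93 from day 0 to day 6 (SE 0.64, adjusted p = 0.0105), the second at an adjusted p of 0.0544 with the 14 libraries of the later year. From day 3 to day 6 in WT cells the 3 libraries of *Dhrs3* were all higher on day 6, by 1.46 on the log2 scale (SE 0.18, unadjusted p = 0.000104, adjusted p = 0.488), and here 0 of 9613 genes (0%) passed, with 722 at an unadjusted p under 0.05. In DKI cells the same step was 0.82 (SE 0.56, adjusted p = 0.999), and 0 of 9540 genes (0%) passed, with 93 at an unadjusted p under 0.05. In order of mean level, WT day 3 and WT day 6 were each apart from the next group, DKI day 0 overlapped WT day 0, and DKI day 3 was apart from WT day 0 below it and overlapped DKI day 6.

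Read together within a library, the reducing and the oxidising gene changed order. The difference of log2(RPKM + 1), *Dhrs3* minus *Aldh1a2*, was 3.07 to 4.73 in the 6 day 0 libraries. On day 3 it was −3.39, −4.79 and −3.00 in WT libraries and 4.396, 4.24 and 3.38 in DKI libraries. On day 6 it was −2.60, −1.998 and −3.72 in WT libraries and 2.07, 5.03 and 3.88 in DKI libraries. *Aldh1a2* was thus above *Dhrs3* in all 6 WT libraries of days 3 and 6 and below it in all 6 DKI libraries. The group means differed by 7.73 on day 3 and by 6.43 on day 6 (exact permutation p = 0.1 each, two-sided, the smallest that 3 against 3 allows).

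**Figure D2:**
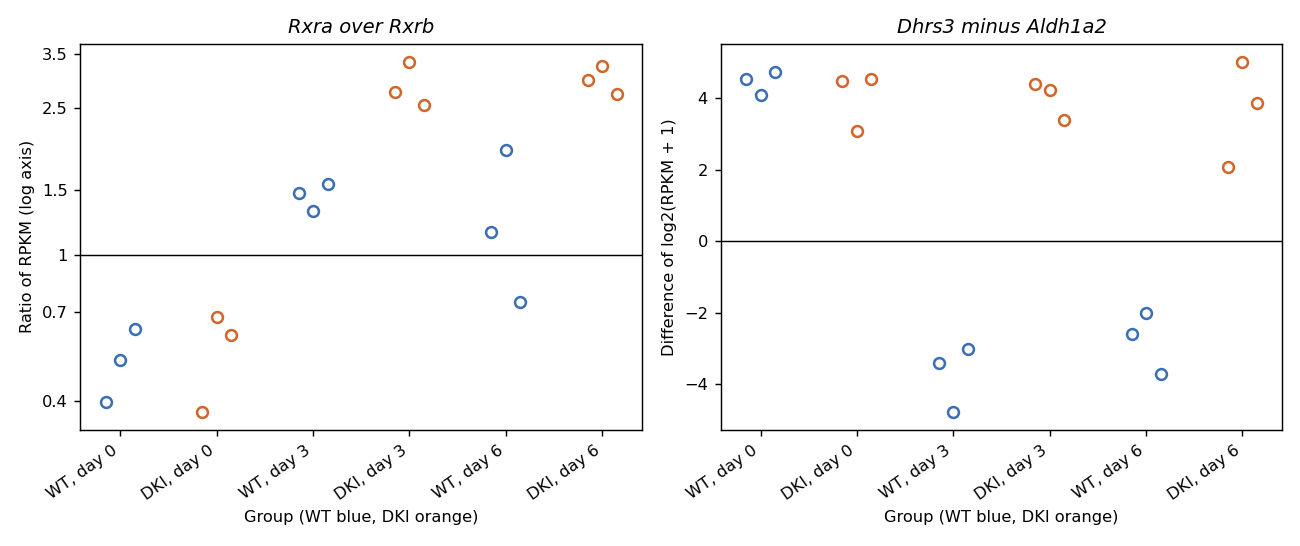
Within-library comparisons of member pairs, with a point per library, WT in blue and DKI in orange. Left, *Rxra* over *Rxrb* (ratio of RPKM, log axis), at 2.55 to 3.34 in the DKI libraries of days 3 and 6 and at 0.742 to 1.92 in the WT libraries. Right, *Dhrs3* minus *Aldh1a2* on the log2(RPKM + 1) scale, below 0 only in the WT libraries of days 3 and 6.

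Of 31 other genes of retinoid metabolism (dehydrogenases, reductases, CYP26 enzymes and binding proteins), 11 were tested on day 3 and 13 on day 6, and 0 passed on either day, where 7.42% and 7.54% of all genes did, with median differences of 0.05 and −0.13. From day 0 to day 3, 5 rose and 4 fell of 12 in WT cells, and 1 rose and 3 fell of 12 in DKI cells, where 43.1% and 34.2% of all genes passed. *Dhrs9*, which encodes a retinol dehydrogenase, rose by 4.80 in WT cells (adjusted p = 0.0025) and was at 85.4 to 152 RPKM on day 3, against 7.67 to 42.2 RPKM in DKI cells. *Cyp26b1*, which encodes an enzyme that degrades retinoic acid, rose by 2.89 in WT cells (adjusted p = 0.0202). It was at 1.04 to 20.6 RPKM in WT and 0.0662 to 1.79 RPKM in DKI cells on day 3. *Fabp5*, which encodes a fatty acid binding protein that also carries retinoic acid, rose by 3.87 in DKI cells. *Rdh12*, which encodes a retinol dehydrogenase, fell by 1.28 in DKI cells. Both moved the same way in WT cells, where the mean of *Fabp5* went from 3.74 RPKM on day 0 to 15.1 RPKM on day 3. That of *Rdh12* went from 3.10 to 0.853 RPKM. Of the relatives of *Aldh1a2*, named after their values were seen, *Aldh1a3* was at or below 0.107 RPKM in every library, and *Aldh1a1* had a mean of 1.20 RPKM in WT monocytes and 0 on day 3.

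The retinoic acid receptors themselves differed less. *Rara* (Entrez Gene 19401, chromosome 11, 98927800 to 98974942) was the more abundant RAR in every library. On day 0 it was at 28.5, 59.2 and 41.9 RPKM in WT and at 30.4, 72.4 and 39.5 RPKM in DKI libraries. On day 3 it was at 60.1, 37.6 and 47.0 RPKM in WT and at 24.5, 26.7 and 26.1 RPKM in DKI libraries. The day 3 groups did not overlap, while the day 0 libraries of the same number lay close together in both genotypes. After 6 days the values were 40.5, 34.8 and 32.7 RPKM in WT and 19.3, 33.1 and 24.6 RPKM in DKI libraries, with DKI library 2 above WT library 3. The means on day 3 were 48.2 ± 11.3 and 25.8 ± 1.16 RPKM (SD, n = 3), a WT to DKI ratio of 1.87, and the log2 difference of −0.85 (SE 0.19, interval −1.32 to −0.39) missed the threshold at an adjusted p of 0.0502. With a pseudocount of 0.1 the adjusted p was 0.0493, the smallest over the alternatives, which ran up to 0.144. On day 6 the difference was −0.50 (interval −1.03 to 0.03, adjusted p = 0.194). The change of *Rara* from day 0 to day 3 did not pass in WT cells (0.19, adjusted p = 0.620) or in DKI cells (−0.76, adjusted p = 0.1002), and the interaction of −0.95 did not pass (adjusted p = 0.352). In order of mean level, DKI day 3 was apart from WT day 6 among the 6 groups, and all other neighbours overlapped.

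*Rarg* (Entrez Gene 19411, chromosome 15, 102234938 to 102257522), the second RAR, fell in culture in both genotypes. On day 0 it was at 24.3, 27.9 and 26.3 RPKM in WT and at 25.5, 37.5 and 25.2 RPKM in DKI libraries. On day 3 it was at 12.6, 12.1 and 11.9 RPKM in WT and at 8.64, 11.997 and 16.4 RPKM in DKI libraries. By day 6 WT libraries were at 11.004, 9.44 and 13.8 RPKM and the DKI libraries at 8.53, 10.7 and 21.4 RPKM. The genotypes overlapped on every day, the WT libraries of day 3 lay within a narrow range, and every library of days 3 and 6 was below every library of day 0. *Rarg* fell by 1.04 from day 0 to day 3 in WT cells (SE 0.13, adjusted p = 0.00101) and by 1.21 in DKI cells (SE 0.27, adjusted p = 0.0167). Without DKI library 2 of day 0 the adjusted p of the fall in DKI cells was 0.0588. The difference between genotypes was −0.03 on day 3 (interval −0.56 to 0.51) and 0.14 on day 6 (interval −0.66 to 0.95). *Rara* over *Rarg* was 1.17 to 2.12 on day 0, 3.10 to 4.75 in WT and 1.59 to 2.83 in DKI libraries of day 3, and the ranges of day 6, 2.37 to 3.69 in WT and 1.14 to 3.10 in DKI libraries, overlapped. The third RAR gene, *Rarb*, named after its values were seen, was at 0.0371 to 1.39 RPKM.

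The 2 RXR genes moved against each other in culture. *Rxra* (Entrez Gene 20181, chromosome 2, 27676445 to 27763319), a partner of RARs, VDR and other receptors, was at 12.7, 13.2 and 19.4 RPKM in WT and at 11.8, 16.6 and 18.5 RPKM in DKI libraries on day 0. On day 3 it was at 26.8, 19.9 and 24.4 RPKM in WT and at 40.3, 37.0 and 40.6 RPKM in DKI libraries. By day 6 WT libraries were at 23.3, 28.1 and 14.4 RPKM and the DKI libraries at 47.4, 42.2 and 36.7 RPKM. All DKI libraries were above all WT libraries on days 3 and 6, as for 36.3% and 37.2% of all genes in either direction. The means on day 3 were 23.7 ± 3.504 and 39.3 ± 2.03 RPKM (SD, n = 3), a DKI to WT ratio of 1.66, and the log2 difference was 0.71 (SE 0.15, interval 0.34 to 1.09, adjusted p = 0.0452). This call was lost in 10 of 14 alternatives, including the replicate block (0.0642) and the omission of any of the 6 libraries, with adjusted p-values of 0.0372 to 0.136. The day 6 ratio was 1.92 and the difference of 0.95 was not called (SE 0.26, interval 0.33 to 1.57, adjusted p = 0.0717). *Rxra* rose from day 0 to day 3 by 0.63 in WT cells (SE 0.20, adjusted p = 0.0388) and by 1.296 in DKI cells (SE 0.20, adjusted p = 0.00534), and the interaction of 0.66 did not pass (adjusted p = 0.287). The rise in WT cells was lost in 6 alternatives, 4 of which left out library 1 or 2 of day 0 or library 1 or 3 of day 3 (adjusted p = 0.0921 to 0.119). In order of mean level, WT day 3 was apart from DKI day 3, and the other neighbours overlapped.

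*Rxrb* (Entrez Gene 20182, chromosome 17, 34031812 to 34038403) fell in both genotypes. On day 0 it was at 31.8, 25.4 and 31.0 RPKM in WT and at 31.7, 24.5 and 30.7 RPKM in DKI libraries. On day 3 it was at 18.2, 15.2 and 15.8 RPKM in WT and at 14.6, 11.1 and 16.0 RPKM in DKI libraries. Cells of day 6 were at 20.2, 14.6 and 19.4 RPKM in WT and at 16.0, 12.9999 and 13.4 RPKM in DKI libraries. The genotypes overlapped on each day, and all libraries of days 3 and 6 were below all day 0 libraries. The fall from day 0 to day 3 was 0.80 on the log2 scale in WT cells (a difference of −0.80, SE 0.15, adjusted p = 0.00505) and 1.02 in DKI cells (−1.02, SE 0.20, adjusted p = 0.0105). The genotype difference was −0.23 on day 3 (interval −0.65 to 0.18, adjusted p = 0.432) and −0.33 on day 6 (interval −0.74 to 0.08, adjusted p = 0.259). *Rxrg*, named after its values were seen, was at 0 in 16 of 18 libraries and at most 0.0242 RPKM.

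As RPKM is per length, the 2 RXR genes were compared within each library. *Rxra* over *Rxrb* was 0.374 to 0.677 on day 0, that is, *Rxrb* was the higher in all 6 monocyte libraries. On day 3 the ratio was 1.47, 1.31 and 1.55 in WT libraries and 2.76, 3.34 and 2.55 in DKI libraries. On day 6 it was 1.15, 1.92 and 0.742 in WT libraries and 2.97, 3.25 and 2.73 in DKI libraries. The DKI ratios were above all WT ratios on both days, and WT library 3 of day 6 was the only cultured library in which *Rxrb* remained the higher. The order in that library rests on the gene lengths behind RPKM. These were 2768 bp for *Rxrb* and 5267 bp for *Rxra*, against 3973 and 5462 bp in the GENCODE annotation. On the log2 scale the mean ratio was higher in DKI cells by 0.99 on day 3 and by 1.34 on day 6 (exact permutation p = 0.1 each, two-sided, the smallest possible), and on day 0 by 0.08 (p = 0.8, exact permutation). The summed RPKM of *Rxra*, *Rxrb* and *Rxrg* was 35.1 to 45.0 in WT and 48.1 to 56.6 in DKI libraries on day 3. That of *Rara*, *Rarb* and *Rarg* was 50.2 to 73.4 in WT and 33.2 to 42.8 in DKI libraries. By day 6 the RXR sum was 33.8 to 43.5 in WT and 50.1 to 63.4 in DKI libraries, and the RAR sums of 44.5 to 52.1 and 28.4 to 46.4 overlapped.

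*Vdr* (Entrez Gene 22337, chromosome 15, 97854427 to 97908296), the receptor of the active form of vitamin D, rose in both genotypes and was the lower in DKI cells on both culture days. From the 1.70 to 2.31 RPKM of the day 0 libraries given above, it was at 40.6, 57.1 and 38.1 RPKM in WT libraries and at 4.87, 6.65 and 9.10 RPKM in DKI libraries on day 3. On day 6 the WT libraries were at 44.8, 38.5 and 88.0 RPKM and the DKI libraries at 9.16, 10.1 and 6.89 RPKM. The lowest WT library of either culture day was above every DKI library, and the lowest DKI library of either day was above every day 0 library. The means on day 3 were 45.3 ± 10.3 and 6.87 ± 2.13 RPKM (SD, n = 3), a ratio of 6.59, with a log2 difference of −2.57 (SE 0.25, interval −3.18 to −1.96, adjusted p = 0.0069, limma). The call held in all 14 alternatives run, with differences of −2.77 to −2.37. The day 6 means were 57.1 ± 27.0 and 8.72 ± 1.65 RPKM, a ratio of 6.55, with a difference of −2.50 (SE 0.33, adjusted p = 0.0162). The day 6 call was lost without WT library 1 or DKI library 3 of that day (adjusted p = 0.0556 and 0.0659) and with the 14 libraries of the later year (0.129), in a range over the alternatives of 6.08e-05 to 0.129.

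*Vdr* rose from day 0 to day 3 by 3.95 on the log2 scale in WT cells (SE 0.19, adjusted p = 2.94e-05) and by 1.32 in DKI cells (SE 0.24, adjusted p = 0.0091), and the ratios of the mean RPKM were 23.2 and 3.29. The 2 rises differed by −2.63 (SE 0.30, adjusted p = 0.00149), and those from day 0 to day 6 by −2.56 (SE 0.38, adjusted p = 0.00611). Both interactions passed in every alternative run. In order of mean level, DKI day 0 was apart from DKI day 3 and DKI day 6 from WT day 3, while the genotypes on day 0, the culture days within DKI and the culture days within WT overlapped.

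**Figure D3:**
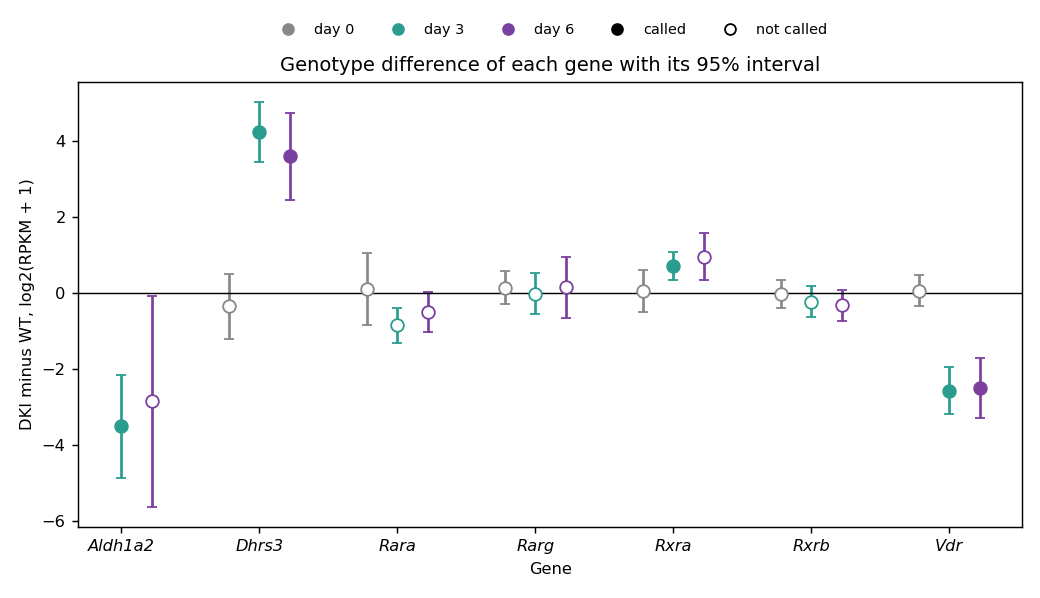
Difference between DKI and WT cells in log2(RPKM + 1) for each of the 7 genes on days 0, 3 and 6, with the 95% interval from limma (3 libraries per group). Filled points passed the adjusted threshold. *Dhrs3* lies at 4.23 and 3.59 and *Vdr* at −2.57 and −2.50 on days 3 and 6, and *Aldh1a2* has no day 0 point because it was below the expression filter.

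Across the time comparisons, 6 of 7 members passed in WT cells from day 0 to day 3 (*Aldh1a2*, *Rxra* and *Vdr* higher, *Dhrs3*, *Rarg* and *Rxrb* lower), where 20.3% of 9938 genes were higher and 22.8% lower. In DKI cells 6 of 7 also passed (*Aldh1a2*, *Dhrs3*, *Rxra* and *Vdr* higher, *Rarg* and *Rxrb* lower), where 13.1% of 9922 genes were higher and 21.1% lower. The change from day 0 to day 3 differed between the genotypes for 3 members, *Aldh1a2*, *Dhrs3* and *Vdr*, against 2.91% of 10212 genes (1.2% higher and 1.7% lower), and that from day 0 to day 6 for *Dhrs3* and *Vdr*, against 2.8% of 10353 genes (0.898% higher and 1.9% lower). Without a test, the libraries of day 0 and day 3 did not overlap for 6 members in WT and 7 in DKI cells, as for 61% and 55.2% of all genes, and those of day 3 and day 6 for *Dhrs3* in WT cells (14.3% of all genes) and no member in DKI cells (4.43%), while between the genotypes on day 0 no member was apart (1.03%). From day 3 to day 6 the interaction was called for 0 of 9985 genes (0%) in limma, with 89 at an unadjusted p under 0.05, and hence for no member.

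The markers of the cells moved with these results. The summed RPKM of 6 dendritic cell markers (*Cd209a*, *Itgax*, *Ccr7*, *Ccl17*, *Ccl22* and *Zbtb46*) was 3.76 to 13.1 on day 0, 5197 to 9464 in WT and 114 to 433 in DKI cells on day 3, and 4188 to 10407 in WT and 409 to 483 in DKI cells on day 6, with 5 of 6 lower in DKI cells on each day. That of 6 macrophage markers (*Adgre1*, *Mertk*, *Mrc1*, *Fcgr1*, *Stab1* and *Pf4*) was 259 to 632 in WT and 1762 to 3800 in DKI cells on day 3, and 313 to 642 and 1314 to 4211 on day 6, with 4 and 3 of 6 higher in DKI cells. The 6 monocyte markers summed to 814 to 1194 in WT and 1459 to 2371 in DKI cells on day 3, and to 627 to 1131 and 1394 to 1696 on day 6. The 8 neutrophil markers summed to 117 to 895 in WT and 876 to 1484 in DKI cells on day 3, and to 104 to 510 and 493 to 1106 on day 6, with 0 called in either list. Sums of less abundant lists also lay apart. The 5 basophil and mast cell markers summed to 31.6 to 47.8 in WT and 13.3 to 31.1 in DKI cells on day 3 and to 36.7 to 126 and 19.3 to 28.5 on day 6. The 6 B cell markers summed to 0.364 to 0.473 and 1.26 to 7.10 on day 3 and to 0.196 to 0.780 and 1.21 to 3.53 on day 6. The 4 conventional dendritic cell markers summed to 9.39 to 10.7 and 3.00 to 5.10 on day 6. DKI library 1 stood apart from the other DKI libraries in the sum of 4 plasmacytoid dendritic cell markers, at 1247 on day 3 and 968 on day 6 against 127 to 250 and 150.4 to 156. WT libraries had 83.9 to 125.6 on day 3, below all DKI libraries, and 139 to 196 on day 6. That sum came from *Bst2* and *Tcf4*, since the defining markers *Siglech* and *Ccr9* averaged below 0.1 RPKM in DKI cells of both days. Its 5 stroma markers summed to 30.9 on day 6 against 0.165 and 0.459 in the other DKI and 2.27 to 9.86 in the WT libraries, with 1 of 3 tested lower in DKI cells. Its 3 endothelium markers summed to 24.1 on day 3 and 7.84 on day 6, against 0.473 to 2.84 and 0.739 to 0.970 in the other DKI and 1.004 to 5.45 and 1.95 to 4.34 in the WT libraries. Without it the day 3 differences were −3.64 for *Aldh1a2* (adjusted p = 0.0363), 3.89 for *Dhrs3* (adjusted p = 0.00516), 0.70 for *Rxra* (adjusted p = 0.0615) and −2.37 for *Vdr* (0.00995). On day 6 they were 3.40 for *Dhrs3* (adjusted p = 0.0446) and −2.54 for *Vdr* (0.0420), while *Aldh1a2*, at −3.83, and *Rxra*, at 0.86, were not called. The part of these cell types in the differences of *Aldh1a2*, *Dhrs3*, *Rxra* and *Vdr* was not tested. The day 0 libraries also held other markers, with neutrophil sums of 1021 to 1614 RPKM and stroma sums of 28.5 to 139 RPKM. The 4 eosinophil markers summed to 128 to 460 RPKM on day 0 and to 5.07 to 49.2 RPKM in culture. The part of these lists in the changes from day 0 to day 3 was not tested. The 4 mesothelium markers, of a tissue known for *Aldh1a2*, summed to at most 0.128 RPKM in every library.

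**Figure D4:**
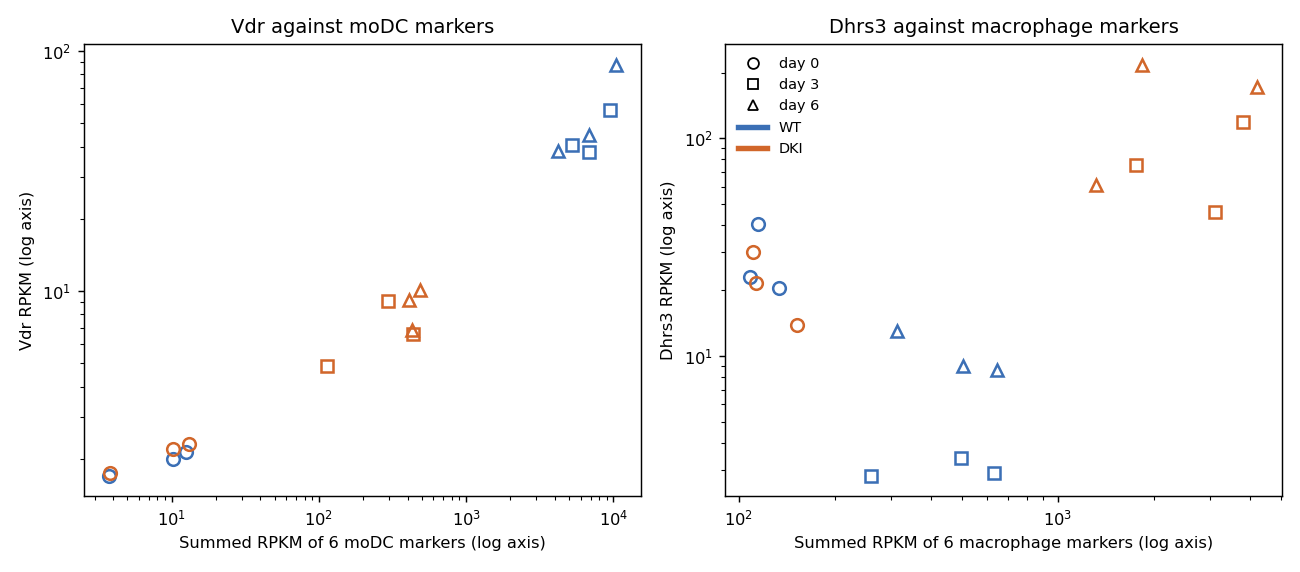
*Vdr* against the summed RPKM of 6 dendritic cell markers (left) and *Dhrs3* against that of 6 macrophage markers (right), log axes, with a point per library, shape giving the day and colour the genotype. WT libraries of days 3 and 6 lie at 4188 to 10407 RPKM of dendritic cell markers and DKI libraries at 114 to 483 RPKM, and within WT cells *Dhrs3* was lower in culture than on day 0 while the macrophage markers were higher.

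Other genes followed the members over the 18 libraries. By Pearson's r of log2(RPKM + 1) among 10417 genes, given as a description since these libraries share 6 groups, the closest to *Vdr* were *Tmtc2* (r = 0.988), *Mpzl3* (0.987) and *Suox* (0.984), the last with means of 24.8 RPKM in WT and 4.61 RPKM in DKI cells on day 3. The closest to *Aldh1a2* were *Stk39* (0.956), *Socs2* (0.952) and *Foxp4* (0.944), and *Socs2*, an inhibitor of cytokine signalling and a known STAT5 target, had means of 102.1 RPKM in WT and 4.85 RPKM in DKI cells on day 3. The closest to *Dhrs3* were *Lamp1* (0.938), *Ang* (0.932) and *Ly9* (0.926), with *Lamp1*, a lysosomal membrane protein, at means of 296 RPKM in WT and 1166 RPKM in DKI cells on day 3. For *Rxra* they were *Ctso*, *Slc45a4* and *Nxpe5* (each at least 0.953), for *Rxrb* *Frat1* (0.968) and *Gpr18* (0.955), for *Rarg* *Add3* (0.940), *Gtf2a2* (0.939) and *Slain2* (0.936), and for *Rara* *Ube2o* (0.883), *Ucp2* (0.847) and *Arf5* (0.846). Among the members, r was 0.930 for *Aldh1a2* with *Vdr*, −0.808 for *Rxra* with *Rxrb* and −0.533 for *Dhrs3* with *Vdr*.

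Of 44 other nuclear receptor genes, 42 were in the table. On day 3, 4 were higher and 2 lower in DKI cells of 15 tested, and on day 6, 4 were higher and 2 lower of 16, with median differences of 0.06 and −0.02, where 7.42% and 7.54% of all genes passed. The higher genes on day 3 were *Nr1h3* (2.23, adjusted p = 0.0393), which encodes the oxysterol receptor LXRα, *Nr1d2* (1.77, adjusted p = 0.0197), which encodes a REV-ERB repressor, *Thra* (1.34) and *Nr3c1* (0.71). *Pparg*, the fatty acid receptor that pairs with RXR, passed on day 6 (1.70, adjusted p = 0.0217), as did *Nr1d2* (1.31), *Thra* (1.26) and *Nr1d1* (1.46). *Esr1*, the estrogen receptor, was lower on day 3 (−1.54) and on day 6 (−1.62), and *Thra*, *Nr3c1*, *Nr1d1* and *Esr1* were named after their values were seen. In the NR4A family of orphan receptors, *Nr4a3* was lower in DKI cells, by −4.61 on day 3 (adjusted p = 0.0069) and by −3.49 on day 6 (adjusted p = 0.0239), and *Nr4a1* and *Nr4a2* fell from means of 433 and 44.0 RPKM in WT monocytes to 0.906 and 1.17 RPKM on day 3.

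**Figure D5:**
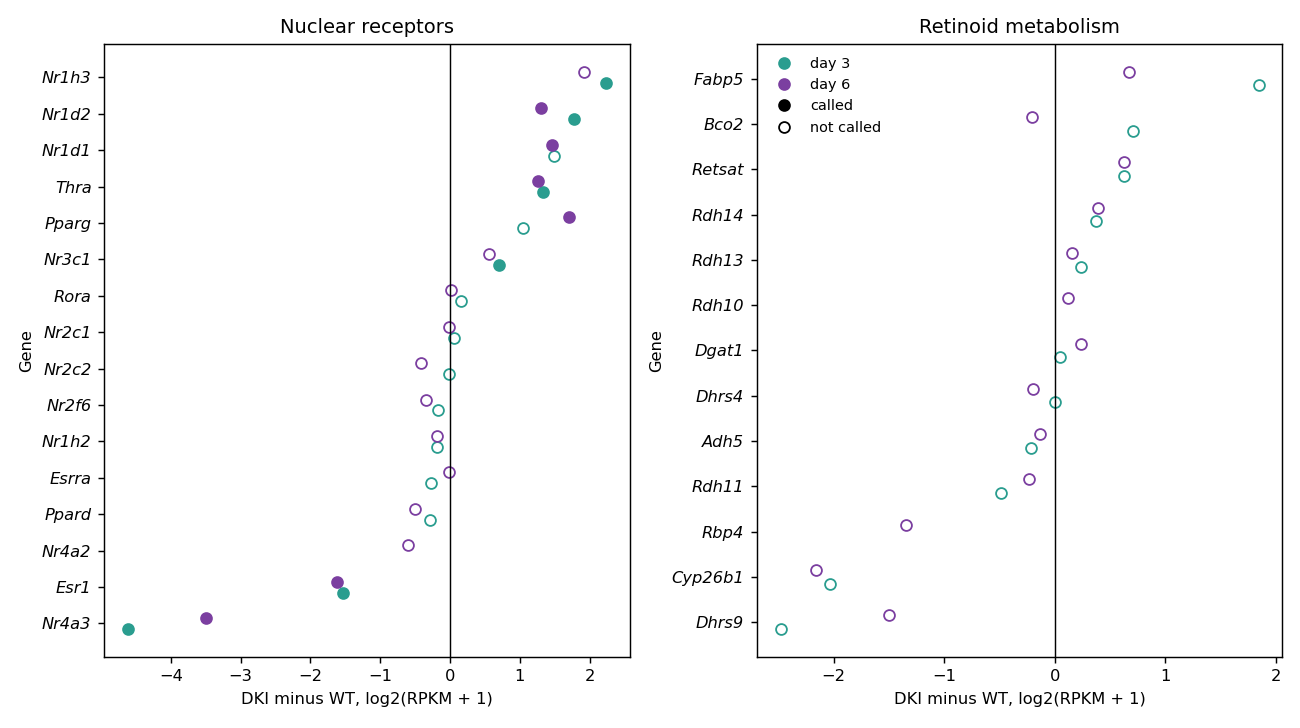
Difference between DKI and WT cells in log2(RPKM + 1) for the tested genes of nuclear receptors other than the members (left) and of retinoid metabolism (right), on days 3 and 6. Filled points passed the adjusted threshold: 6 receptors on each day, from −4.61 (*Nr4a3*) to 2.23 (*Nr1h3*) on day 3, and 0 retinoid metabolism genes.

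Of 22 coregulator genes, 21 were in the table, and 0 of 19 passed between genotypes on either day (7.42% and 7.54% of all genes), with medians of −0.03 and −0.35. From day 0 to day 3, 2 rose and 9 fell of 20 in WT cells, where 20.3% of all genes rose and 22.8% fell. In DKI cells 1 rose and 8 fell of 20, where 13.1% and 21.1% did. Among them were *Crebbp*, a histone acetyltransferase (fell by 1.47 in WT and by 1.56 in DKI cells), *Ncoa1*, a receptor coactivator (fell by 1.46 and by 1.09), and *Ppargc1b*, a coactivator of mitochondrial genes (1.36 in both). Of 14 genes known to respond to retinoic acid, 4 were tested between the genotypes, with medians of −1.11 and −1.74, and 1 was lower on each day (4.21% and 4.82% of all genes), *Itgae*, which encodes the integrin chain CD103. The tested genes lay on both sides of 0, with *Cd38*, named after its values were seen, at 1.86 on day 3 (adjusted p = 0.360) and 1.69 on day 6 (0.445). *Itgae* was at 34.98 to 47.1 RPKM in WT and 0.119 to 0.678 RPKM in DKI libraries on day 3 (−4.98, SE 0.21, adjusted p = 0.00147), and the day 6 difference was −4.41 (adjusted p = 0.0107). Of 12 vitamin D genes, 5 were tested and 0 passed between the genotypes on either day (7.42% and 7.54% of all genes), with medians of 0.43 and 0.27. *Dhcr7*, which encodes the enzyme that draws on the vitamin D precursor, rose from day 0 to day 3 by 1.67 in WT and by 2.05 in DKI cells, and *Cd14* fell by 3.64 and by 2.65. *Cyp24a1* and *Cyp27b1*, the enzymes that degrade and activate vitamin D and that were named after their values were seen, were at most 0.00867 and 0.0962 RPKM in any library.

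The windows of 250 bases before the annotated starts were searched on both strands for STAT and receptor letters, which describe sequence and not a site in use. All 7 members matched RefSeq, with 15 windows. TTCNNNGAA was in 7.02% of the 32851 windows and in 1 of the 15 member windows, a start of *Rara* at chr11:98939461-98939710. TTCNNNNGAA was in 5.85% of all windows and in those of *Vdr*, shown above, and of 2 overlapping starts of *Dhrs3*. The matches of *Dhrs3* (chr4:144892948-144892977, plus strand) and *Rara* (chr11:98939503-98939532, plus strand) are shown with their neighbouring bases and with the match in capitals, as the only other members with either palindrome.
Dhrs3: ccctttctttTTCTGGAGAAagttggaggg
Rara: gctggtcgcagTTCAGTGAAgccccccggg
The 6-letter elements AGGTCA or GGGTCA and, with another base in the third place, AGTTCA or GGTTCA, to which RXR and its partners bind in pairs, were in 38.6% of all windows and in 4 member windows, of *Rara*, *Rarg*, *Rxra* and *Vdr*. Direct repeats of these elements spaced by 1 to 5 bases were in 0.0396% to 0.174% of all windows for each spacing and in 0 member windows.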

How the data were processed

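RNA from 18 libraries (WT and DKI, days 0, 3 and 6 with GM-CSF, 3 each) was made with a Zymo kit and Kapa mRNA HyperPrep and sequenced single-end on a HiSeq2000. The authors aligned reads to mm10 with Subread, counted RefSeq genes with featureCounts and deposited RPKM values. Versions, strandedness and library totals were not given in the sources used here. RPKM are not counts, so differences were tested with limma 3.58.1 (lmFit, eBayes with trend, R 4.3.3) on log2(RPKM + 1), which understates changes of low genes, for genes with a mean above 2 RPKM in at least 1 group, with Benjamini-Hochberg adjustment over all genes tested in each of 10 comparisons. Calls needed an adjusted p under 0.05 and a fold over 1.5. The fit was tested on simulated data. Other steps used Python 3.11.15, numpy 2.4.6 and pandas 2.3.3.

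Depth (29500000 to 43200000 reads, median 36400000) was estimated from the steps of low values of 1125 receptor genes, and reads of each member from the gene length, between 200 and 20000 bp, at which RPKM in all libraries gave whole numbers. No count test was run. Values after ± are the SD over the 3 libraries of a group, and the SEs and intervals are those of the limma fit.

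Groups came from the labels. Libraries of the same number in WT and DKI cells shared their deviations from the group mean (correlations of 0.687 to 0.868 on day 0, 0.156 to 0.364 on day 3 and 0.336 to 0.412 on day 6), and so did days 3 and 6 within a genotype (0.135 to 0.734), but days 0 and 3 did not (−0.204 to 0.182), and no 2 libraries were identical. Alternatives were a pseudocount of 0.1, no filter, median centring, quantile normalization, all 18 libraries in 1 fit, the replicate block, eBayes without trend, leaving out each library, and, chosen after seeing the data, the 14 libraries of the later year.

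The members and gene lists were chosen with earlier results of these data known. Named genes were the members, *Stat5a* and *Stat5b*, up to 4 genes per list with the largest called genotype difference, up to 2 per list and genotype with the largest called change from day 0 to day 3, and the 3 genes best correlated with each member, of which 1 is not reported here. Others are stated where named.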

Additional observations from a re-analysis of the deposited data

Results flagged for a closer look

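For 3 members the change in culture differed between the genotypes by a test of that difference, the interaction in limma on log2(RPKM + 1). Of all genes tested, 2.91% of 10212 passed from day 0 to day 3 and 2.8% of 10353 from day 0 to day 6. From day 0 to day 3 the change in DKI cells minus that in WT cells was 4.57 for *Dhrs3*, which rose in DKI and fell in WT cells. It was −3.58 for *Aldh1a2* and −2.63 for *Vdr*, which rose in both genotypes and less in DKI cells. From day 0 to day 6 the difference was 3.93 for *Dhrs3* and −2.56 for *Vdr*. The *Aldh1a2* value was past the threshold in 15 of 20 alternatives, with an adjusted p of 0.128 with a pseudocount of 0.1, 0.149 with all 18 libraries in 1 fit and 0.0505 with the 14 libraries of the later year, the range being 0.0142 to 0.149. That of *Dhrs3* from day 0 to day 6 was lost with the 14 libraries of the later year (adjusted p = 0.0544).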

How the results depend on the processing

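Of the values for single members, 364 kept their direction and their side of the threshold under the alternatives that left out no single library, 17 lost a call, 3 gained one and 4 turned direction; with 1 library left out the counts were 348, 26 and 0, with 21 turned. The number of members called on day 3 between the genotypes was 2 with no filter, with the replicate block and with the 14 libraries of the later year, 3 with all 18 libraries in 1 fit and 5 with a pseudocount of 0.1, against 4 as reported, and 2 to 3 without a single library. On day 6 it was 4 with all 18 libraries in 1 fit and 0 with the 14 libraries of the later year, against 2, and 0 to 2 without a single library. For the interaction from day 0 to day 6 it was 1 with the 14 libraries of the later year, against 2. Genes called on day 3 (723) numbered 358 with no filter, 1350 with all 18 libraries and 369 with the 14 libraries of the later year, and on day 6 (742) 187, 1545 and 38. Without 1 library they numbered 197 to 216 (a WT library left out), 415 (DKI library 2), 432 (DKI library 3) and 715 (DKI library 1) on day 3, and on day 6 106 and 107 (WT libraries 1 and 3), 584 (WT library 2), 251, 984 and 90 (DKI libraries 1, 2 and 3), so the shares of all genes called move with single libraries. Quantile normalization gave 342 higher and 310 lower on day 6 and median centring 323 and 285, against 268 and 474. With the replicate block, which pairs the libraries by number, the day 3 calls came to 551 genes and the day 6 calls to 719, and of the members *Aldh1a2* (adjusted p = 0.0634) and *Rxra* (0.0642) lost their day 3 calls between the genotypes; the block changed no other member call between the genotypes or in the interactions. From day 0 to day 3, where the numbers do not pair the libraries, 5 members were called in each genotype with the block, against 6. Of all genes, 3788 of 9938 in WT and 3179 of 9922 in DKI cells were called with the block, against 4283 and 3394. Values that turned direction were near 0: *Rarg* on day 3 was 0.0517 with median centring, 0.0519 with quantile normalization and 0.21 with the 14 libraries of the later year, and its interaction from day 0 to day 3 was 0.0696 with those. Without a single library, the day 0 differences ran from −0.25 to 0.36 for *Rara*, −0.0425 to 0.23 for *Rarg*, −0.0724 to 0.24 for *Rxra* and −0.12 to 0.0892 for *Rxrb*. The day 3 difference of *Rarg* lay at −0.24 to 0.19, that of day 6 at −0.22 to 0.40, its interactions to days 3 and 6 at −0.38 to 0.0466 and −0.36 to 0.26, and the day 3 change of *Rara* in WT cells at −0.0717 to 0.44. The causes were not tested. *Aldh1a2* had 1 to 76 reads per library on day 0.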
